A study of Mus musculus with 9 samples.

Results

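The replication-dependent histone genes were followed in donor T cells of the mouse spleen. Members were the protein-coding genes of the GENCODE M21 annotation whose symbols start with Hist1h, Hist2h, Hist3h or Hist4h. The annotation holds 67 of them, 64 are in the deposited count table of 29229 genes, and 60 of these had enough counts for the test among 19609 tested genes. By type, the 64 are 6 H1, 18 H2A, 16 H2B, 11 H3 and 13 H4 genes. By cluster, 52 belong to Hist1 on chromosome 13, 9 to Hist2 on chromosome 3, 2 to Hist3 on chromosome 11 and 1, Hist4h4, is on chromosome 6. Hist1h2bm, Hist1h2bh and Hist2h3c1 were not analysed here.

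Core histones H2A, H2B, H3 and H4 form the particle around which nuclear DNA is wrapped, and linker histones of type H1 bind where DNA enters and leaves it. A cell that copies its genome needs new histones for the new DNA, so replication-dependent genes are transcribed and their mRNA is stable mainly in S phase. Most of these mRNAs end in a short stem-loop that the stem-loop binding protein Slbp holds, in place of a poly(A) tail. Libraries made from total RNA after ribosomal RNA depletion, as here, do not select for poly(A) tails.

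RNA was sequenced from live CD3+ CD45.2+ spleen T cells in 3 groups of 3 libraries. Naive libraries came from healthy C57BL/6 mice without a transplant. Syngeneic libraries came from recipients of the strain B6.SJL-Ptprca Pepcb/BoyJ (CD45.1, H-2b) irradiated with 9.5 Gy and given 8500000 T cells. Allogeneic libraries came from CByJ.SJL(B6)-Ptprca/J recipients (H-2d) irradiated with 8 Gy and given 1000000 T cells. Both kinds of recipient also received 5000000 T-cell-depleted C57BL/6 marrow cells, which carry CD45.2 too, and cells were taken on day 7 from pools of 2 to 4 recipients. The mice were females aged 8 to 12 weeks. Recipient strain, radiation dose and T-cell number all differ between the transplant groups and cannot be told apart. The strain tag of every library names the syngeneic recipient strain, against the titles of the naive libraries and the protocol of the allogeneic recipients.

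The stem-loop is shown first because it is the feature that sets these mRNAs apart. A 16-base stem-loop was found in the annotated transcript of 46 of the 67 genes, in 8 versions. Of those, 26 genes of types H1, H2A, H2B and H3 share 1 version, and 7 H4 genes share another whose stem starts with GGCCC. The following stretches are from GENCODE M21 transcripts (GRCm38), 5′ to 3′, with the stem-loop in capitals and up to 5 neighbouring bases on each side.
Hist1h1c (chr13:23739507-23739532, +): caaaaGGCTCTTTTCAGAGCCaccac
Hist3h2a (chr11:58955167-58955192, +): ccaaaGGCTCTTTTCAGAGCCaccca
Hist2h2ac (chr3:96220413-96220438, −): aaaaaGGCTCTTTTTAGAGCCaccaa
Hist1h3c (chr13:23745042-23745067, −): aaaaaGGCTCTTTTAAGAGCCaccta
Hist1h3g (chr13:23535884-23535909, +): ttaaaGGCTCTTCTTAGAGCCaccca
Hist1h4f (chr13:23551286-23551311, −): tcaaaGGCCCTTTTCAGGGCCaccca
Hist1h4b (chr13:23757361-23757386, +): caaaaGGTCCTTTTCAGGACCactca
Hist2h4 (chr3:96262934-96262959, −): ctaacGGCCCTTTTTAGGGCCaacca
Hist1h3c and Hist1h4f were among the genes that differed most from naive cells, Hist3h2a was lower, and Hist1h1c differed least among the Hist1 genes. Hist3h2a and Hist1h1c carry the same 16 bases as the most common version, so these different responses go with 1 stem-loop. No stem-loop was found in 21 genes of the table. For 16 of the genes without one, the transcript used is under 500 bases long and a multiple of 3. It may end before the end of the mRNA, which was not tested. Among these, Hist1h2bq and Hist1h2br also have longer transcripts, with annotated exons of 2015 and 2212 bases. Hist2h2be, with a model of 2620 bases, also holds none.

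Total counts were 103953932 to 176678189 per library. The ribosomal-locus genes Gm26917 and Gm42418 took 15.8 to 18.8% of naive counts, 19.4 to 22.4% of syngeneic counts and, in allogeneic libraries 1, 2 and 3, 17.2%, 9.06% and 7.87%. T-cell markers summed to 6124 to 6510 counts per 1000000 counts (CPM) in naive libraries. They summed to 4671 to 5188 CPM in syngeneic and 5535 to 6191 CPM in allogeneic libraries. Of the 11 markers 9 were lower in syngeneic than in naive libraries, where 19.5% of all tested genes were. Markers of other cells were also present. The 13 erythroid markers in the table summed to 8.29 to 9.7 CPM in naive libraries, to 2259, 5829 and 4984 in syngeneic libraries 1 to 3, and to 84.1, 25 and 36.7 in allogeneic libraries 1 to 3. The 10 neutrophil markers summed to 1.76 to 5.42 CPM in naive libraries, 426 to 1434 in syngeneic and 639 to 1149 in allogeneic libraries. The 12 macrophage and monocyte markers summed to 7.32 to 8.53, 65.7 to 234 and 89.3 to 178 CPM, and the 12 B-cell markers to 468 to 495, 537 to 963 and 969 to 1506 CPM in the same order. Of the macrophage markers 1 was at 0 in the naive libraries, and none of these markers was at 0 in a transplant group.

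Histone genes as a whole were several times more abundant in both transplant groups than in naive T cells. Their summed level was 1456, 1421 and 1678 CPM in naive libraries, 6488, 8281 and 10183 CPM in syngeneic libraries and 12639, 9545 and 10299.6 CPM in allogeneic libraries. As a share of all counts this was 0.152% ± 0.014 (SD, n = 3) in naive libraries, 0.832% ± 0.185 in syngeneic and 1.083% ± 0.161 in allogeneic libraries. All 6 transplant libraries lay above all naive libraries. The ratio of means was 5.48 for syngeneic and 7.13 for allogeneic against naive libraries. Allogeneic against syngeneic libraries gave a ratio of 1.3, and the groups overlapped, since syngeneic library 3 lay above allogeneic library 2. In such bulk samples, more cells in S phase and more histone RNA per cell cannot be told apart. Among syngeneic libraries, library 1 was lowest both in histone genes and in erythroid, neutrophil and macrophage markers. It was also lowest in summed DNA replication genes (3167, 3588 and 3959 CPM in libraries 1 to 3) and mitosis genes (2602, 4045 and 4242 CPM). Among allogeneic libraries, library 1 was highest in histone genes and erythroid markers and lowest in macrophage and B-cell markers. The part of those other cells in the histone level was not tested.

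All 5 histone types took part. H1 genes summed to 633 ± 46.4 CPM (SD, n = 3) in naive libraries, 2623 ± 594 in syngeneic and 3401 ± 483 in allogeneic libraries. H4 genes summed to 527 ± 56.3, 2489 ± 526 and 3267 ± 497 CPM in the same order. For H2B the sums were 156 ± 23.2, 1430.1 ± 316 and 1834 ± 289 CPM. H3 genes summed to 109 ± 15 CPM in naive libraries, 976 ± 227 in syngeneic and 1345 ± 212 in allogeneic libraries, and H2A genes to 93 ± 11.8, 799 ± 191 and 981 ± 138 CPM. Since H1 and H4 gained least, the makeup shifted: H1 held 41.8% of histone counts in naive libraries, 31.5% in syngeneic and 31.4% in allogeneic libraries, and H2B 10.3%, 17.2% and 16.9%. H2A and H3 held 6.12% and 7.15% of histone counts in naive libraries, 9.57% and 11.7% in syngeneic and 9.07% and 12.4% in allogeneic libraries. These shares are descriptions of counts, which depend on gene length.

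**Figure D1:**
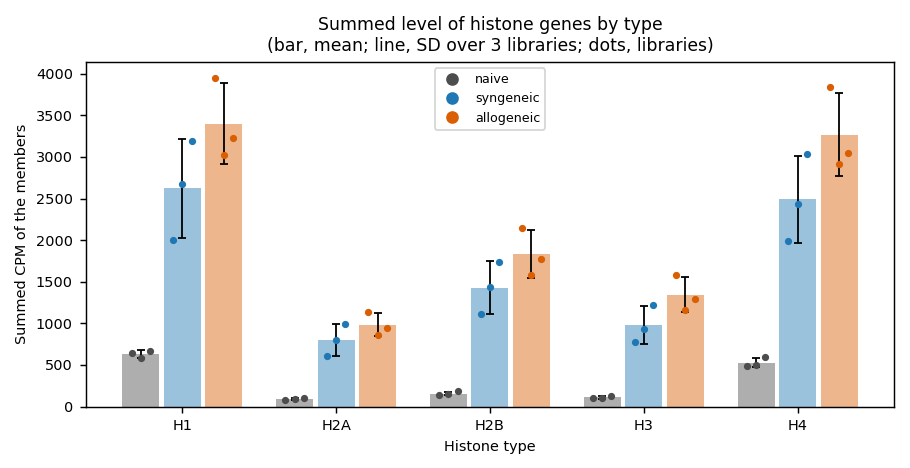
Summed level of the histone genes of each type in CPM by column total (bars, group means; lines, SD over 3 libraries; dots, libraries). In every type all 6 transplant libraries lie above the naive libraries, and syngeneic and allogeneic libraries overlap.

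Gene by gene, nearly all tested members were higher after transplantation. Against naive libraries, 56 of 60 rose in allogeneic libraries and 57 of 60 in syngeneic libraries (edgeR's quasi-likelihood test, Benjamini-Hochberg adjusted p under 0.05 over all tested genes), every one of them by at least 2-fold. Over all tested genes, 31.8% rose in allogeneic and 22.4% in syngeneic libraries, and 17% and 13.4% did so by at least 2-fold. In either direction, 57.7% and 41.9% of all tested genes were called. The median log2 fold change of the tested members was 3.63 in allogeneic and 3.23 in syngeneic libraries, against −0.01 and 0.01 over all tested genes. Both comparisons share the naive libraries. For 58 of 60 members in either comparison the libraries of the groups were fully separate, as for 65.1% of all tested genes in allogeneic and 56.5% in syngeneic against naive libraries. In allogeneic libraries Hist2h2be and Hist3h2a fell, where 25.9% of all genes did (12.7% by at least 2-fold, as Hist3h2a), and Hist2h2aa2 and Hist2h3c2 were not called. In syngeneic libraries Hist2h2be fell, by less than 2-fold, where 19.5% of all genes did (4.95% by at least 2-fold), and Hist2h2aa2 and Hist3h2a were not called. A member with few naive counts could pass the filter on low counts only through the groups where it was high. This was the case for Hist1h2ao, Hist1h2br, Hist1h4m and Hist1h1t, all at or under 0.0578 CPM in every naive library. Their rises against naive libraries followed from the filter and lend no support to the counts and medians here and below.

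**Figure D2:**
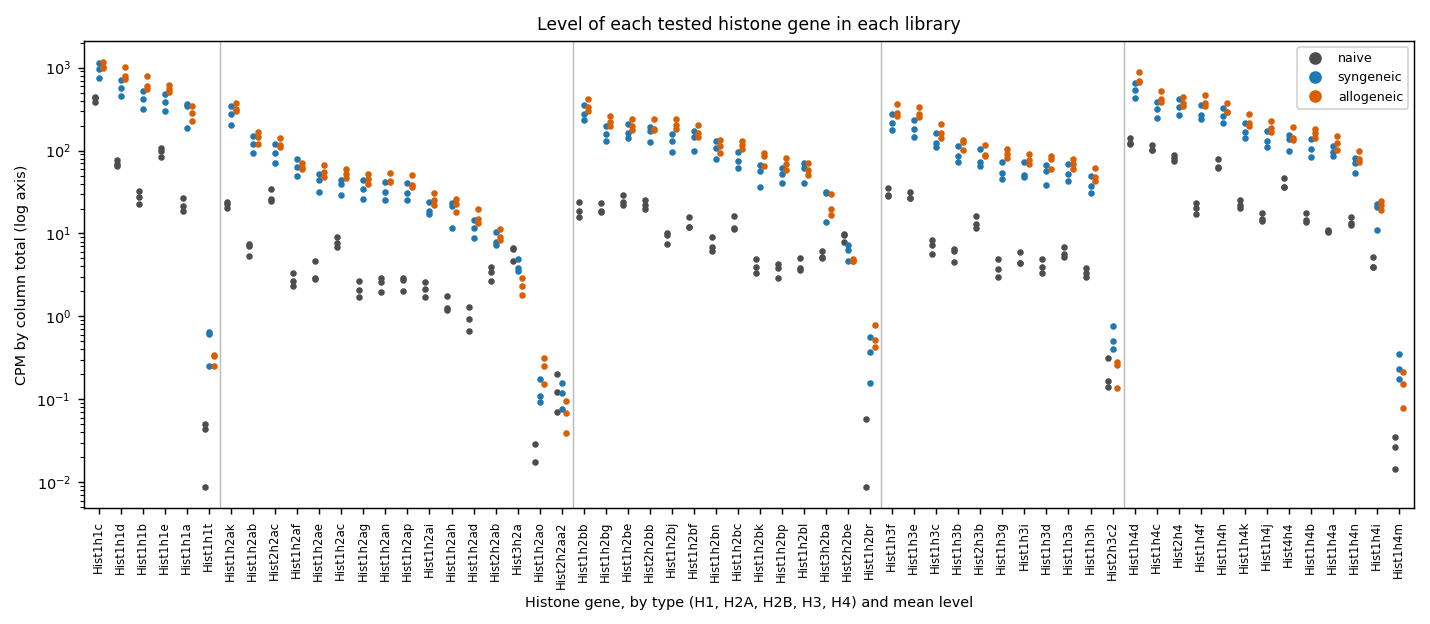
Level of each of the 60 tested histone genes in each library (log axis, CPM by column total; values of 0 are not drawn), ordered by type and by mean level. Transplant libraries lie above naive libraries for nearly all genes, all 6 lie below them for Hist2h2be, and the allogeneic libraries lie below them for Hist3h2a.

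All 49 tested Hist1 genes were higher in both transplant groups. Among them, Hist1h2ao, Hist1h2br, Hist1h4m and Hist1h1t passed the filter only through a group where they were high. The 49 genes had median log2 fold changes of 3.88 in allogeneic and 3.56 in syngeneic libraries. They lie in blocks along chromosome 13 (GRCm38), and the 16 tested genes of the first block (21715763 to 21837530), the 5 of the second (22035164 to 22043676) and the 28 of the third (23531050 to 23764406) had medians of 3.95, 4.38 and 3.6 in allogeneic libraries. The 8 tested Hist2 genes had a median of 1.87 in allogeneic and 1.59 in syngeneic libraries. Hist1 genes held 86.1% ± 0.425 (SD, n = 3) of histone counts in naive libraries, 89.7% ± 0.0843 in syngeneic and 90.7% ± 0.481 in allogeneic libraries. Hist2 genes held 10.5%, 8.36% and 7.6% in the same order. The single Hist4 gene, Hist4h4, rose from 36, 36.6 and 46.2 CPM in naive libraries to 98.8, 137 and 152 CPM in syngeneic and 194, 142 and 132 CPM in allogeneic libraries, and its share of histone counts went from 2.6% to 1.56% and 1.44%.

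Among linker histone genes, the gene that dominates naive libraries changed least. Hist1h1c stood at 442, 381 and 429 CPM in naive libraries, 750.2, 963 and 1129 CPM in syngeneic libraries and 1171, 1006 and 994 CPM in allogeneic libraries. Its log2 fold change against naive was 1.4 ± 0.15 (SE, adjusted p = 1.16e-05) in allogeneic and 1.21 ± 0.15 (adjusted p = 7.17e-05) in syngeneic libraries, the smallest rise of all Hist1 genes. Both transplant groups lay above all naive libraries and overlapped each other. Hist1h1b stood at 22.4, 27.8 and 32.3 CPM in naive libraries, 321, 417 and 516 CPM in syngeneic and 792, 547 and 599 CPM in allogeneic libraries. The groups did not overlap in any comparison, and its log2 fold change was 4.62 ± 0.24 in allogeneic (adjusted p = 2.63e-08) and 3.96 ± 0.23 in syngeneic libraries (adjusted p = 1.98e-07). Hist1h1d rose from 65.6 to 76.9 CPM in naive libraries to 452 to 702 CPM in syngeneic and 739.5 to 1026 CPM in allogeneic libraries. Hist1h1e stood between 82.6 and 107 CPM in naive libraries, 297 and 482 CPM in syngeneic and 505 and 613 CPM in allogeneic libraries. Hist1h1a rose from 18.6 to 26.6 CPM in naive to 185, 341 and 361 CPM in syngeneic and 344, 227 and 287 CPM in allogeneic libraries, so that transplant groups overlapped. Hist1h1t, the testis-specific linker histone gene, was at or under 0.64 CPM in every library.

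The mix of H1 mRNAs therefore differed between naive and transplant libraries. Transplant libraries also held markers of other cells, whose part in this shift was not tested. Hist1h1c held 68.4, 65.6 and 63.9% of H1 counts in naive libraries, 37.4, 36 and 35.4% in syngeneic libraries and 29.7, 33.3 and 30.8% in allogeneic libraries. All 3 groups were separate, with allogeneic libraries lowest. Hist1h1b went the other way, from 4.35% ± 0.767 (SD, n = 3) in naive to 15.9% ± 0.3 in syngeneic and 18.9% ± 1.04 in allogeneic libraries. Hist1h1d held 11.1% ± 0.845, 21.9% ± 0.729 and 25% ± 0.843 in the same order. For Hist1h1a the share was 3.5% ± 0.56 in naive libraries, 11.1% ± 1.77 in syngeneic and 8.37% ± 0.751 in allogeneic libraries. Hist1h1e held 15.1% in naive libraries, 14.8% in syngeneic and 16.5% in allogeneic libraries, the last all above the syngeneic libraries. Per kilobase of annotated exon, Hist1h1c stood at 268 CPM in naive libraries, Hist1h1b at 37 and Hist1h1a at 29.9, whereas in allogeneic libraries Hist1h1b stood at 869.5, Hist1h1c at 678 and Hist1h1a at 386. The length of Hist1h1d cannot serve this comparison, as its model runs 4884 bases past the stem-loop. That of Hist1h1c also runs 840 bases past it. Annotated exons span 1560 bases in Hist1h1c, 743 in Hist1h1b and 741 in Hist1h1a, and the last 2 models hold no stem-loop. The order per kilobase therefore depends on the annotated lengths. In counts, Hist1h1c stayed above Hist1h1b in allogeneic libraries.

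**Figure D3:**
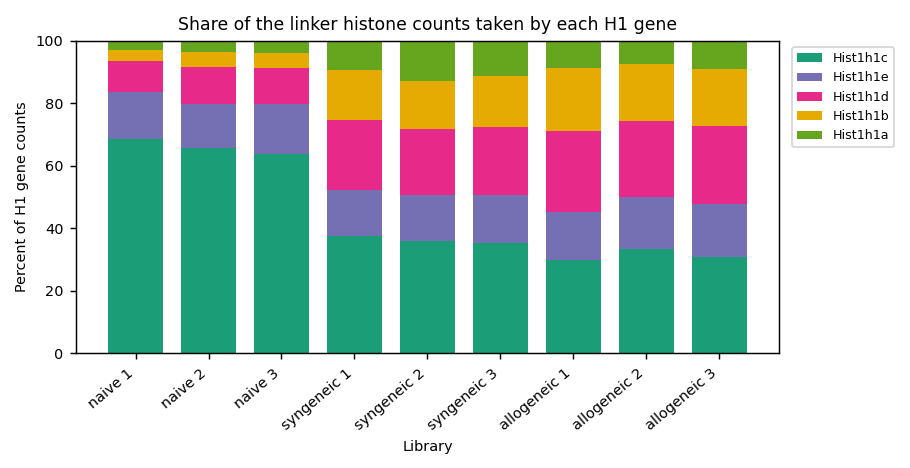
Percent of the counts of H1 genes held by each gene in each library (Hist1h1t, under 0.03%, is not drawn). Hist1h1c holds 63.9 to 68.4% in naive and 29.7 to 37.4% in transplant libraries.

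H2A genes rose in 14 of 16 tests in each transplant group, counting Hist1h2ao, which passed the filter only through a group where it was high. The most abundant, Hist1h2ak, stood at 20.3, 22.9 and 23.8 CPM in naive libraries, 205, 276 and 344 CPM in syngeneic and 374, 297 and 314 CPM in allogeneic libraries. Hist1h2ab rose from 5.36, 7.05 and 7.57 CPM to 93.9, 121 and 149 CPM in syngeneic and 169.7, 121 and 145 CPM in allogeneic libraries. Hist1h2af had the largest log2 fold change of type H2A, 4.6 ± 0.2 (adjusted p = 8e-09) in allogeneic and 4.56 ± 0.2 (adjusted p = 3.24e-08) in syngeneic libraries, but only 6% of the 50-base stretches of its model occur in no other gene. Transplant groups overlapped for all 3 genes. The median over tested H2A genes was 4.01 in allogeneic and 3.63 in syngeneic libraries.

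H2B genes rose in 13 of 14 tests in each transplant group, counting Hist1h2br, which passed the filter only through a group where it was high. Hist1h2bb, the most abundant, stood at 15.8, 18.7 and 24.1 CPM in naive libraries, 236, 277 and 355 CPM in syngeneic and 419, 299 and 337 CPM in allogeneic libraries. Hist1h2bg went from 18.3 to 23.1 CPM in naive libraries to 130.4 to 200 CPM in syngeneic and 198 to 265 CPM in allogeneic libraries, the transplant groups overlapping slightly. Hist1h2be rose from 22.2 to 29 CPM to 143 to 208 CPM and 178 to 237 CPM, and part of its model overlaps Hist1h1e on the same strand, so reads there belong to either gene. Hist2h2bb rose from 19.8 to 25.6 CPM in naive to 128 to 191 CPM in syngeneic and 178 to 244 CPM in allogeneic libraries, the largest log2 fold change of the Hist2 cluster, 3.23 and 2.89. None of its 50-base stretches is found in that gene alone. Medians of the type were 3.83 in allogeneic and 3.57 in syngeneic libraries.

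H3 genes rose in 10 of 11 tests in allogeneic and in all 11 in syngeneic libraries. Hist1h3c had the largest log2 fold change of all members in allogeneic libraries. It stood at 5.62, 7.32 and 8.4 CPM in naive libraries, 109, 124 and 162 CPM in syngeneic and 206, 144 and 161 CPM in allogeneic libraries, a log2 fold change of 4.65 ± 0.23 (adjusted p = 1.91e-08) and 4.24 ± 0.22 (adjusted p = 9.7e-08). All transplant libraries were more than 10 times as high as any naive library. The most abundant were Hist1h3f, from 28.7 to 35.8 CPM in naive to 177 to 276 in syngeneic and 264 to 366.5 in allogeneic libraries, and Hist1h3e, from 26.7 to 32.1 CPM to 146 to 234 and 253 to 334 CPM. Hist2h3b rose from 11.8 to 16.4 CPM to 65.3 to 105 CPM and 86.4 to 116 CPM. Hist2h3c2 was near the limit of detection, at 0.139 to 0.318 CPM in naive libraries, 0.399 to 0.77 in syngeneic and 0.136 to 0.279 in allogeneic libraries. Its rise in syngeneic libraries (log2 fold change 1.43 ± 0.43, adjusted p = 0.0186) was lost, at an adjusted p of up to 0.0806, without naive library 2, naive library 3 or syngeneic library 2.

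H4 genes all rose, by less than the other core types in the median, 2.6 in allogeneic and 2.33 in syngeneic libraries. Hist1h4m among them passed the filter only through a group where it was high. Hist1h4d, Hist1h4c, Hist2h4, Hist1h4h and Hist4h4, with the highest naive levels of the type, had log2 fold changes of 2.05 to 2.6 in allogeneic libraries. Rises of that size were not limited to them. Hist1h4i and Hist1h4n, at mean naive levels of 4.34 and 14.1 CPM, had 2.39 and 2.63. Hist1h4j and Hist1h4k, at 15.7 and 22.7 CPM, had 3.69 and 3.41. Hist1h4d stood at 120, 123 and 143 CPM in naive libraries, 433, 530 and 652 CPM in syngeneic and 880, 669 and 693 CPM in allogeneic libraries. Hist1h4c stood at 101, 100.3 and 117 CPM in naive libraries, 248, 315 and 386 CPM in syngeneic and 520, 389 and 420 CPM in allogeneic libraries, the smallest H4 rise in syngeneic libraries, 1.6 ± 0.17 (adjusted p = 2.62e-05). Hist2h4 went from 75.7 to 89.7 CPM to 270 to 419 CPM and 346 to 438 CPM. Hist1h4f had the largest log2 fold change of the type, at 17.2, 20.4 and 23.2 CPM in naive libraries, 237 to 358 CPM in syngeneic and 346 to 473 CPM in allogeneic libraries. Its log2 fold change was 4.36 ± 0.21 (adjusted p = 1.55e-08) in allogeneic and 3.87 ± 0.2 (adjusted p = 9.4e-08) in syngeneic libraries.

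The clearest departure was a pair of neighbours on chromosome 3 whose starts lie 239 bases apart and which are read away from each other. Hist2h2ac (chr3:96220361-96220880, −) codes for an H2A and Hist2h2be (chr3:96221119-96223738, +) for an H2B. Hist2h2ac stood at 24.9, 26.4 and 34.8 CPM in naive libraries, 71.8, 93.4 and 119 CPM in syngeneic and 143, 110.1 and 116 CPM in allogeneic libraries. It rose by a log2 fold change of 2.17 ± 0.2 in allogeneic (adjusted p = 3.18e-06) and 1.75 ± 0.2 in syngeneic libraries (adjusted p = 3.5e-05). Hist2h2be stood at 9.78, 7.94 and 9.63 CPM in naive libraries, 4.68, 7.33 and 6.36 CPM in syngeneic and 4.6, 4.88 and 4.71 CPM in allogeneic libraries. It fell by 0.89 ± 0.17 on the log2 scale in allogeneic (adjusted p = 0.000713) and by 0.55 ± 0.16 in syngeneic libraries (adjusted p = 0.019). The naive libraries of Hist2h2be lay above all transplant libraries. Its call in syngeneic libraries was lost, at an adjusted p of up to 0.0776, without naive library 1, naive library 3, syngeneic library 1 or syngeneic library 3, and its call in allogeneic libraries was kept without any 1 library. All 50-base stretches of Hist2h2be occur in no other gene. T-cell markers had median log2 fold changes of −0.61 in syngeneic and −0.11 in allogeneic against naive libraries. The part of T-cell content in the fall of Hist2h2be was not tested. Of the 12 such pairs with both genes in the table, this was the only one whose genes were called in opposite directions against naive, among the 10 pairs with both genes tested.

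The stretch between the pair is shown because it lies before both starts. It is the RefSeq window of Hist2h2ac (GRCm38.p6, 250 bases before to 50 after the RefSeq start), read on the minus strand, so that its first bases lie just inside the annotated start of Hist2h2be and its last bases inside Hist2h2ac. Capitals mark the motif CCAAT, the motif TATAAA and the motif ATTTGCAT on either strand, read on the other strand as ATTGG, as TTTATA and as ATGCAAAT.
Hist2h2ac (chr3:96220831-96221130, −): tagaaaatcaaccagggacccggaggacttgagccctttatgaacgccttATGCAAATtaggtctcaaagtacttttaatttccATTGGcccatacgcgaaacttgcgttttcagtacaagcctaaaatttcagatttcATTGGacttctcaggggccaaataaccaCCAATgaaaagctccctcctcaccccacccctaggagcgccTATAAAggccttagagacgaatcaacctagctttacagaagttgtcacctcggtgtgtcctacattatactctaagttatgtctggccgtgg
The window holds 3 matches to CCAAT, 1 to TATAAA and 1 to ATTTGCAT, the octamer known from H2B promoters. Over the 62 members with a RefSeq window, CCAAT was found in 85.5%, TATAAA in 56.5% and ATTTGCAT in 21%, against 37.4%, 13.6% and 1.74% of 32851 RefSeq promoter windows of the same length. All 13 members with ATTTGCAT code for H2A or H2B. CCAAT was found in 18 of 18 H2A, 16 of 16 H2B, 10 of 10 H3 and 6 of 6 H1 windows, and in 3 of 12 H4 windows. Windows of neighbouring H2A and H2B genes read away from each other can overlap. A single site can then count for both genes, as for Hist1h2ah and Hist1h2bk. These matches are letters in a window and not measured binding.

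On chromosome 11 the Hist3 genes also parted. Hist3h2a, coding for an H2A and overlapped by Trim17 on the same strand, stood at 6.51, 6.62 and 4.69 CPM in naive libraries, 3.84, 4.89 and 3.54 CPM in syngeneic and 2.87, 2.32 and 1.83 CPM in allogeneic libraries. It fell by 1.27 ± 0.23 on the log2 scale in allogeneic against naive (adjusted p = 0.000677), and its value of −0.5 ± 0.23 in syngeneic libraries did not pass (adjusted p = 0.104). Hist3h2ba, coding for an H2B, stood at 5.26, 5.04 and 6.23 CPM in naive libraries, 13.7, 31.9 and 31.2 CPM in syngeneic and 29.8, 19.8 and 16.9 CPM in allogeneic libraries. Its log2 fold change was 2.08 ± 0.31 in allogeneic (adjusted p = 0.000147) and 2.23 ± 0.31 in syngeneic libraries (adjusted p = 0.000169). The window before Hist3h2a, shown because it is the other gene that fell, also holds matches to CCAAT and ATTTGCAT.
Hist3h2a (chr11:58954435-58954734, +): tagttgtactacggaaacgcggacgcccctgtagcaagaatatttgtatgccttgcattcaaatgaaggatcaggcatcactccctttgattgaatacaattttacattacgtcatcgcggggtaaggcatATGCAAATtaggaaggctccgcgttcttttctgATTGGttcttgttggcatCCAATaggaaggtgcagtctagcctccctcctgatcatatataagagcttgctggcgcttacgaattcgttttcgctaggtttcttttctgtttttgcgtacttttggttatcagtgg
As part of all histone counts, Hist2h2be took 6.02 ± 0.614 per 1000 (SD, n = 3) in naive libraries, 0.743 ± 0.132 in syngeneic and 0.445 ± 0.0746 in allogeneic libraries. Hist3h2a took 3.98 ± 1.03, 0.51 ± 0.14 and 0.216 ± 0.0342 per 1000 in the same order.

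**Figure D4:**
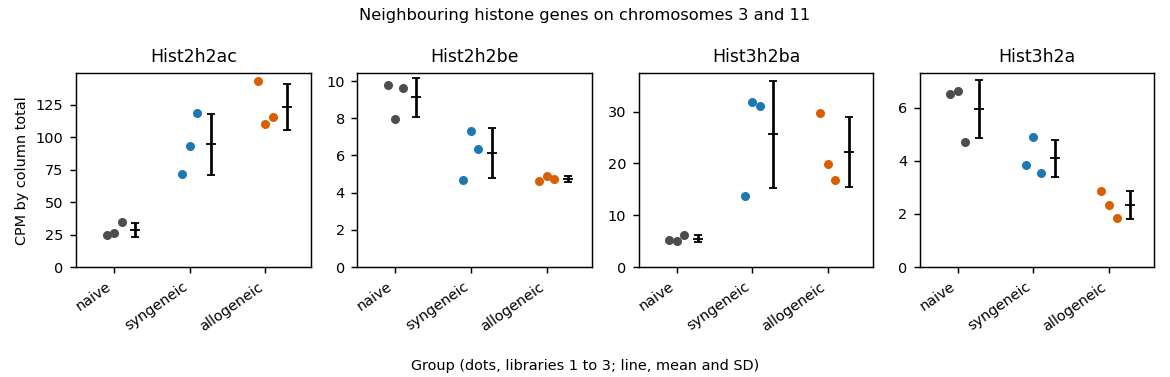
CPM by column total of neighbouring genes in each library (dots, libraries; lines, mean and SD over 3 libraries; each panel has its own axis from 0). Hist2h2ac and Hist3h2ba are higher, and Hist2h2be and Hist3h2a lower, in allogeneic than in naive libraries.

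Transplant groups differed little from each other. In allogeneic against syngeneic libraries 16 of 60 members rose (26.7%, against 24.3% of all tested genes) and 2 fell, Hist2h3c2 and Hist3h2a, where 20.7% of all genes did, so that the share of members called higher was near that of all genes. Of all tested genes 45% were called in either direction, 7.82% higher and 11.6% lower by at least 2-fold, and no member rose by 2-fold. The median log2 fold change of the members was 0.42, against −0.03 over all genes, and 52 of 60 values were above 0. All 16 that rose belong to Hist1: 3 H1, 2 H2A, 4 H2B, 2 H3 and 5 H4 genes. Hist1h2bj had the largest call, from 96, 131 and 157 CPM in syngeneic to 237, 180.4 and 204 CPM in allogeneic libraries, a log2 fold change of 0.73 ± 0.18 (adjusted p = 0.00567). Hist1h3g rose by 0.72 ± 0.2 (adjusted p = 0.0127), Hist1h1b by 0.67 ± 0.2 (adjusted p = 0.0199) and Hist1h4b by 0.63 ± 0.17 (adjusted p = 0.0113). Hist3h2a fell by 0.77 ± 0.23 (adjusted p = 0.0188) and Hist2h3c2 by 1.29 ± 0.42 (adjusted p = 0.0286). For 14 of 60 members all allogeneic libraries lay on 1 side of all syngeneic libraries, as for 52.7% of all tested genes.

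The number of these calls depended on single libraries. The 16 calls became 4 without allogeneic library 1, 5 without syngeneic library 2, 7 without syngeneic library 1, 24 without allogeneic library 2 and 28 without syngeneic library 3, and the median went from 0.42 to 0.19 without allogeneic library 1, to 0.31 without syngeneic library 1 and to 0.57 without syngeneic library 3. Allogeneic library 1 had the highest histone level and a ribosomal-locus share of 17.2%, against 9.06% and 7.87% in the other allogeneic libraries. Of the 18 calls, 3 kept direction and call under each of the alternatives listed with the processing, those of Hist1h2bj, Hist1h3e and Hist1h4b. Both falls were lost without syngeneic library 2 or without allogeneic library 2. With all genes of a type added up, 1 of 5 types rose.

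**Figure D5:**
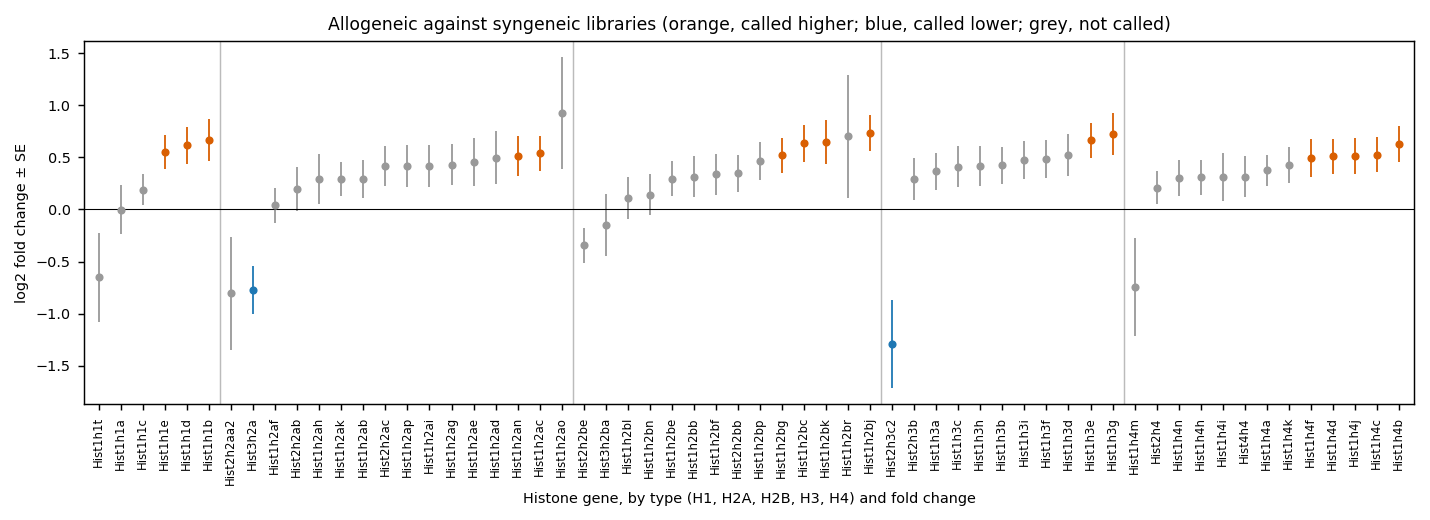
Log2 fold change of allogeneic against syngeneic libraries for the 60 tested members (dots, estimates; lines, SE; orange, called higher; blue, called lower; grey, not called). Most values lie above 0, and 16 genes are called higher and 2 lower.

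For 16 genes of the table the annotated transcript continues for more than 200 bases after the stem-loop, among them Hist1h1c (840 bases), Hist2h4 (1257), Hist3h2a (1643), Hist4h4 (2445), Hist1h3d (752) and Hist1h1d (4884). Their median log2 fold change was 2.6 in allogeneic and 2.09 in syngeneic against naive libraries, and their median level in naive libraries was 29.9 CPM. The 26 tested genes whose transcript ends within 200 bases had medians of 3.98 and 3.63 and a median naive level of 5.84 CPM. The groups of genes overlapped widely: Hist1h3d and Hist1h1d had log2 fold changes of 4.28 and 3.67 in allogeneic libraries, against 1.4 for Hist1h1c and −1.27 for Hist3h2a. This is a description over genes, and whether reads past the stem-loop make up the naive level was not tested, as counts are per gene.

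Near-identical copies limit what can be said of single genes. For 34 of the 64 genes in the table under 50% of the 50-base stretches of the transcript used occur in no other gene. For Hist1h2bq, Hist1h2br, Hist2h2aa1, Hist2h2aa2, Hist2h3b and Hist2h2bb none does. For Hist1h2bq and Hist1h2br this holds for a transcript of 381 bases, while their annotated exons span 2015 and 2212 bases. For Hist2h2bb the stretches are shared with the overlapping gene Gm42743 and with no other histone gene. No source used here says how reads with several alignments were counted, so levels of such genes are uncertain. An annotated gene on the opposite strand overlaps 21 of the 64 genes, among them Hist1h2af, Hist2h2ac and Hist3h2a, and 1 on the same strand overlaps 6, among them Hist3h2a (Trim17) and Hist2h2bb (Gm42743). The strand setting of the counting is not known here. The 28 tested genes with at least 50% such stretches had medians of 3.19 in allogeneic and 2.83 in syngeneic against naive libraries, and 26 of them rose in each. The 32 tested genes under 50% had medians of 3.95 and 3.59, and 30 and 31 of them rose. Hist1h2bq, Hist1h2ba, Hist1h2aa and Hist2h2aa1 were not tested, with at most 12 counts in a library. Hist1h2ba and Hist1h2aa, testis-specific forms of H2B and H2A, had at most 1 count in a naive library and 1 to 12 counts in transplant libraries. Hist2h2aa2, which passed the filter, had no more than 0.201 CPM in any library.

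Genes that make and process histone mRNA changed less than the histone genes. Of the 28 listed genes 20 rose and 2 fell in allogeneic, and 16 rose and 1 fell in syngeneic against naive libraries. Over all tested genes 31.8% and 22.4% rose, and 25.9% and 19.5% fell. The median log2 fold changes of the list were 0.47 and 0.31. The list also holds Slirp, known for mitochondrial and not for histone mRNA, which was called higher in each comparison. Slbp, which binds the stem-loop, stood at 41, 40.2 and 45.3 CPM in naive libraries, 102, 118 and 123 CPM in syngeneic and 99.5, 96.7 and 111 CPM in allogeneic libraries. It rose by 1.33 ± 0.09 (adjusted p = 2.56e-07) and 1.47 ± 0.09 (adjusted p = 3.16e-07) in allogeneic and syngeneic libraries. Npat, the coactivator of histone gene transcription, rose by 0.44 ± 0.08 (adjusted p = 0.000452) and 0.33 ± 0.08 (adjusted p = 0.00528). Cyclins that act on Npat through Cdk2 moved far more: Ccne1 rose by 2.59 and 2.52, Ccne2 by 3.92 and 4.54, and Ccna2 by 5.11 and 4.78. Zfp473, a zinc finger protein of the histone pre-mRNA processing complex, rose by 2.52 and 1.91. Tut4, a uridylyltransferase, fell by 0.61 (adjusted p = 0.00024) and Ctif, a translation initiation factor, by 0.58 (adjusted p = 0.0319) in allogeneic libraries, and Lsm11, of the U7 particle, by 0.32 (adjusted p = 0.0319) in syngeneic libraries.

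Between the transplant groups 8 of these 28 genes rose and 3 fell in allogeneic libraries, where 24.3% of all tested genes rose and 20.7% fell, so that the share that rose was near that of all genes. Mif4gd, known as the Slbp-interacting protein of histone mRNA translation, stood at 27.8, 28.1 and 32.9 CPM in naive and 28, 28.5 and 28.8 CPM in syngeneic libraries and at 64.5, 64.1 and 64.5 CPM in allogeneic libraries. Allogeneic libraries alone were high, with a log2 fold change of 1.2 ± 0.1 against syngeneic libraries (adjusted p = 3.49e-06). Zfp473 rose by 0.61 ± 0.14 (adjusted p = 0.00516). Tut4, Ccne2 and Ctif fell by 0.63, 0.62 and 0.75. Slbp and Npat had values of −0.14 and 0.12 and did not pass (adjusted p = 0.211 and 0.232).

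Genes of histone variants, most of them also made outside S phase, behaved unevenly. Of 10 tested, 7 rose in allogeneic and 5 in syngeneic against naive libraries, and none fell. Over all tested genes 31.8% and 22.4% rose, and 25.9% and 19.5% fell. H2afx, the variant phosphorylated at DNA breaks, whose mRNA is also known in a stem-loop form, came nearest to the replication-dependent genes, at 40.5 to 46.4 CPM in naive libraries, 251 to 392 in syngeneic and 327 to 454 CPM in allogeneic libraries (log2 fold change 2.91 ± 0.19 and 3.17 ± 0.2). H2afz, of promoter nucleosomes, rose by 1.37 in syngeneic and 1.92 in allogeneic libraries, and Cenpa, the centromeric H3, by 1.6 and 2.36. H3f3a and H3f3b, which code for the replacement histone H3.3, had values of 0.29 and −0.13 in syngeneic and −0.12 and 0.17 in allogeneic libraries, none of which passed. Per kilobase of annotated exon, the 11 replication-dependent H3 genes summed to 150 ± 21.6 CPM (SD, n = 3) in naive libraries, 1411 ± 330 in syngeneic and 1926 ± 299.5 in allogeneic libraries. As single genes, H3f3b stood at 108 ± 9.71, 95.6 ± 0.556 and 116 ± 7.07 and H3f3a at 46.6 ± 4.5, 55.6 ± 5.46 and 41 ± 4.54. These levels depend on annotated lengths. The model of Hist1h3h has 411 bases and no stem-loop, and that of Hist1h3f has 1261 bases, 365 of them past the stem-loop.

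One linker variant set allogeneic libraries apart. H1f0, known as the H1 of cells that leave the cycle, stood at 24, 24.3 and 20.9 CPM in naive libraries, 16.6, 23.2 and 19.7 CPM in syngeneic and 66.8, 59.2 and 69.4 CPM in allogeneic libraries. The allogeneic libraries were all above the others, by a log2 fold change of 1.74 ± 0.12 against syngeneic (adjusted p = 7.05e-07) and 1.56 ± 0.12 against naive libraries (adjusted p = 5.96e-07). H2afv rose by 0.74 ± 0.13 (adjusted p = 0.000635), Cenpa by 0.76 ± 0.13 (adjusted p = 0.000584), H2afz by 0.55 ± 0.14 (adjusted p = 0.00893) and H3f3b by 0.3 ± 0.11 (adjusted p = 0.043) in allogeneic against syngeneic libraries, and H3f3a fell by 0.41 ± 0.13 (adjusted p = 0.0245). H2afx had a value of 0.26 and did not pass (adjusted p = 0.26).

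Factors that carry and deposit new histones rose with them against naive cells. Of 21 chaperones and assembly factors 15 rose and 2, Daxx and Ipo4, fell in allogeneic libraries. In syngeneic libraries 14 rose and none fell. Over all tested genes, 31.8% rose and 25.9% fell in allogeneic, and 22.4% rose and 19.5% fell in syngeneic libraries. Chaf1a and Chaf1b, subunits of the assembly factor that works at replication forks, rose by 3.77 and 1.82 in allogeneic and by 3.8 and 1.47 in syngeneic libraries. Asf1b, an H3-H4 chaperone, rose by 3.51 and 3.19, Mms22l by 2 and 2.05, and Hat1, which acetylates new H4, by 1.21 and 1.32. Between transplant groups 4 rose and 2 fell, shares below the 24.3% and 20.7% of all tested genes. Ipo4, an importin, fell by 0.92 ± 0.11 (adjusted p = 5.58e-05) and Asf1a by 0.39 ± 0.14 (adjusted p = 0.038), while Tonsl rose by 0.37 ± 0.09 (adjusted p = 0.00595) and Chaf1b by 0.36 ± 0.09 (adjusted p = 0.00723).

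DNA replication and mitosis genes give the setting. All 29 DNA replication genes rose in allogeneic and 28 in syngeneic against naive libraries, with medians of 2.11 and 2.08. All 20 mitosis genes rose in both, with medians of 4.73 and 4.35. Over all tested genes 31.8% rose in allogeneic and 22.4% in syngeneic against naive libraries. Rrm2, of ribonucleotide reductase, rose by 4.27 and 4.35, Pcna, the sliding clamp, by 1.14 and 1.34, and Mki67, a proliferation marker, by 4.91 and 5.15. Against syngeneic libraries, 2 DNA replication genes rose and 4 fell in allogeneic libraries (Dut rose by 0.63 and Cdc6 fell by 0.57), and 8 of 20 mitosis genes rose, Ccnb2 most, by 0.93 (adjusted p = 0.00114). Of all tested genes 24.3% rose and 20.7% fell, more than of the DNA replication genes. Rrm2, Pcna and Mki67 had values of −0.08, −0.2 and −0.24 and did not pass (adjusted p = 0.715, 0.213 and 0.316). The ratio of summed histone CPM to the summed CPM of the DNA replication list was 1.68, 1.61 and 1.84 in naive libraries, 2.05, 2.31 and 2.57 in syngeneic and 3.57, 3.15 and 2.78 in allogeneic libraries. The ratio to the mitosis list went from 7.99 to 10.5 in naive to 2.05 to 2.49 in syngeneic and 2.7 to 3.33 in allogeneic libraries. Allogeneic libraries lay above syngeneic libraries in both ratios, which are descriptions of chosen lists and were not tested. Gene by gene, the mitosis list had a median log2 fold change of 0.37 in allogeneic against syngeneic libraries. The histone members had 0.42 and the DNA replication list 0.02. The summed CPM of the mitosis list had a ratio of means of 1.02, so its ratio to histone genes depends on using sums.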

How the data were processed

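The authors deposited raw read counts per gene for 9 libraries of total RNA, with Ensembl identifiers. Alignment tools were TopHat2 2.0.13 with Bowtie2 2.2.1 on GRCm38, reads were counted with HTSeq 0.6.1 and quality was read with FastQC 0.11.3, per the submitters' processing notes. No source used here gives the annotation release, the strandedness or the treatment of reads with several alignments, so near-identical histone genes may trade counts. Libraries were grouped by transplant type in the labels. The transplant replicates are separate pools of recipients, and p-values measure the spread between libraries.

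Members and gene lists were chosen with earlier results of these data known. CPM values are counts divided by the column total. Changes were tested with edgeR 4.0.16 (filterByExpr by group, TMM, quasi-likelihood test, 1 model of all 9 libraries with group as its term) in R 4.3.3, and p-values were adjusted by Benjamini-Hochberg over 19609 genes, with calls at 0.05. The SE is the log2 fold change divided by the square root of F. The test was checked on simulated counts. Alternatives were other scalings, no filter, DESeq2 1.42.0, limma-voom (limma 3.58.1), only the groups compared, a replicate block, leaving out each library and genes merged by type. Same-numbered libraries share only a number, so the block is not the main analysis. Replicates differed by more than counting noise, with a chi-square per degree of freedom of 22.5 to 362.

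Named genes are the 3 most abundant per type, the largest and smallest log2 fold change per type and comparison, all H1, Hist2, Hist3 and Hist4 genes, untested genes, genes called against the majority, and from each pathway list those against the majority, the 5 largest and 9 fixed genes; a selection of these is printed. Stem-loops and shared 50-base stretches come from GENCODE M21 transcripts, promoter windows from RefSeq (GRCm38.p6). RefSeq windows matched 62 of the 67 members.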

Additional observations from a re-analysis of the deposited data

How the results depend on the processing

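Against naive libraries the 58 calls of allogeneic libraries kept direction and call under each of the alternatives listed with the processing, and 56 of 58 did in syngeneic libraries, the exceptions being Hist2h2be and Hist2h3c2. Leaving out 1 library gave 56 to 57 members higher in allogeneic and 57 to 58 in syngeneic libraries, and 2 and 0 to 1 lower. With only the 2 groups compared, 2 were lower in syngeneic libraries. Merged by type, 5 of 5 types were higher and 0 lower in both. For allogeneic against syngeneic libraries, leaving out 1 library gave 4 to 28 higher and 0 to 3 lower, with a median of 0.189 to 0.566. Merged by type, 1 of 5 was higher and 0 lower. Other settings gave 11 (only the 2 groups) to 23 (no filter) higher, 20 with DESeq2 and with limma-voom, and 2 lower in each. With the replicate block 15 were higher and 2 lower, and in the other comparisons it changed no count of calls. Correlations of the deviations of same-numbered libraries were −0.118 to 0.265, so no pairing was read from the numbers.

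Some uncalled values changed sign. For allogeneic against syngeneic libraries without 1 library, Hist1h2bl went from −0.09 to 0.27, Hist1h2bn from −0.06 to 0.3, Hist1h2af from −0.1 to 0.2, Hist2h2ab from −0.01 to 0.35, Hist3h2ba from −0.5 to 0.01, Rrm2 from −0.23 to 0.06 and Hist1h1a from −0.23 to 0.17. Hist1h1a, at 0 with the test as planned, was 0.01 with no filter and with limma-voom, and 0.02 with the replicate block. For allogeneic against naive libraries Hist2h3c2 went from −0.06 to 0.6 without 1 library, and for syngeneic against naive Hist2h2aa2 from −0.45 to 0.3. The cause was not tested. A further setting, leaving out 1 syngeneic and 1 allogeneic library picked for their histone level, was run and dropped because libraries should not be chosen by the outcome. It is not counted here, and fewer members were higher and more lower in allogeneic than in syngeneic libraries in it than with all libraries.

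Without the ribosomal-locus genes in the total, the summed level was 1842.6 CPM in naive and 10487.2 in syngeneic libraries by construction, and the ratio of allogeneic to syngeneic means 1.17. Words of 100 in place of 50 bases left 28 genes under 50%.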
